A study of Rattus norvegicus with 42 samples.

Results

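Prolactin (Prl, ENSRNOG00000017374) was followed as 1 of the 13776 genes listed in the deposited count tables of GH4C1 cells, an established rat pituitary line called somatolactotroph because it belongs to the lineage that makes growth hormone and prolactin. The row was taken by its identifier. No measured value entered the rule, but the gene was chosen with earlier results of these data known. The study compared wild-type GH4C1 cells (WT, genotype wild type, no treatment) with GH4C1 cells that lack Neat1, a long non-coding RNA, after CRISPR-Cas9 deletion (KO, genotype Neat1 -/-). Both were grown with horse and fetal calf serum and were synchronised by a change to fresh medium. RNA was taken 10, 14, 18, 22, 26, 30 and 34 h after that change (T10 to T34), with 3 replicates per genotype and time, which gave 42 samples in 14 groups. The title of the series names rhythmic gene expression as the outcome that the deletion was tested for. Per the labels, WT cells had no CRISPR-Cas9 treatment of their own, and the labels do not say whether the KO cells were 1 clone or several, so the deletion and any clonal difference cannot be told apart. Neat1 itself could not be matched to an identifier and was not analysed here, and the genotypes are those of the labels, unchecked.

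Prolactin is the peptide hormone of the pituitary lactotroph, best known for driving milk production. Its transcription in the pituitary depends on the homeodomain factor Pit-1 (Pou1f1), rises with thyrotropin-releasing hormone and oestrogen, and is held down by dopamine acting on the D2 receptor. Neat1 is the RNA scaffold of paraspeckles, nuclear bodies that bind proteins and can retain RNAs in the nucleus.

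The RefSeq promoter of Prl is shown because Pit-1 acts on the promoter of this gene. The window is the 250 bases before the RefSeq start at chr17:38298218-38298467 on the minus strand of the GRCr8 assembly, printed 5′ to 3′. The build used for the counts is not given in the sources used here, and this position belongs to RefSeq's build only. The capitals mark the single match, on either strand, to ATGNATA, a short form of the Pit-1 site.
Prl promoter: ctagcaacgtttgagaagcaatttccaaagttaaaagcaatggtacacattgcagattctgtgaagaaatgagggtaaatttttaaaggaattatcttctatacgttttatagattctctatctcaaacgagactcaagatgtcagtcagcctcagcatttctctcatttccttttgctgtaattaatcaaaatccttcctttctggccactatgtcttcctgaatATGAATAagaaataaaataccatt
The match lies 24 to 18 bases before the RefSeq start. Whether GH4C1 cells begin the transcript at that start was not tested. The window may therefore not be the stretch next to the start used in these cells. ATGNATA occurred in 8.73% of the 33469 RefSeq promoter windows of that length, so the letters are not particular to Prl. The E-box CACGTG, the letters bound by the clock activators, had 0 matches in the window and was found in 5.59% of windows, which says nothing about binding elsewhere. In RefSeq the nearest protein-coding neighbours of Prl on chromosome 17 are Prl3d1, a member of the prolactin family, and Rpl19-ps10. That chromosome carries all 24 protein-coding genes whose symbols are Prl followed by a digit, the placental relatives of the hormone. Whether the counting gave reads of Prl to a close relative, or the reverse, is unknown.

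The depth per sample was 34.5 to 68.8 M counts (M, mega) for WT cells and 45.9 to 60.5 M counts for KO cells. Replicates correlated at 0.987 to 0.995 in log2 level over genes in 40 of 42 pairs. The 2 pairs with WT T34 replicate 1 correlated at 0.919 and 0.935, so this sample stood apart, and the results that it moves most are also given without it. The 2 genes with the most counts in KO took 18.2% to 21.6% of each KO sample and 1.36% to 2.63% of each WT sample. Most of that difference lay in ENSRNOG00000043866, at 15.8% to 19.0% in KO and 0.0251% to 0.251% in WT. The other, ENSRNOG00000057527, took 1.70% to 2.88% in KO and 1.11% to 2.56% in WT. A plain share of the total therefore understates other genes in KO, and levels are given as CPM (counts scaled to a common library size) after TMM scaling, which sets the bulk of genes level between samples. Nothing in the labels says that replicates came from separate cultures, so the tests measure the spread between these samples, which may be technical. In RNA from whole cultures, fewer cells that make prolactin and less Prl RNA per cell cannot be told apart.

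The identity of the line was checked first by the abundance of Prl. In WT it was among the most counted transcripts of the cell. Its rank was 3 of 13776 genes in all 3 samples at T10 and in all 3 at T14. The rank was 5 to 7 at T18, 8 in all 3 samples at T22, 10 to 11 at T26, 12 to 13 at T30 and 10 to 16 at T34. Prl held 0.661% of all counts in the WT sample where its share was highest, T10 replicate 3, and 0.217% where it was lowest, T34 replicate 1. The KO cells ranked far lower on the same measure. Their ranks ran from 364 at T34 to 701 at T18, with a median of 517 over the 21 samples, and the share of counts ran from 0.0207% to 0.0300%. Prl was thus a leading transcript of the WT cells, a line of the somatolactotroph lineage, whereas 395 genes had a higher mean level in KO at T34. Even so, each KO sample held 10844 to 17904 Prl reads, so the transcript was well detected there. Ranks are by count and not per length, since no transcript lengths were used, and a short transcript such as that of Prl gathers fewer reads per molecule than a long one.

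**Figure D1:**
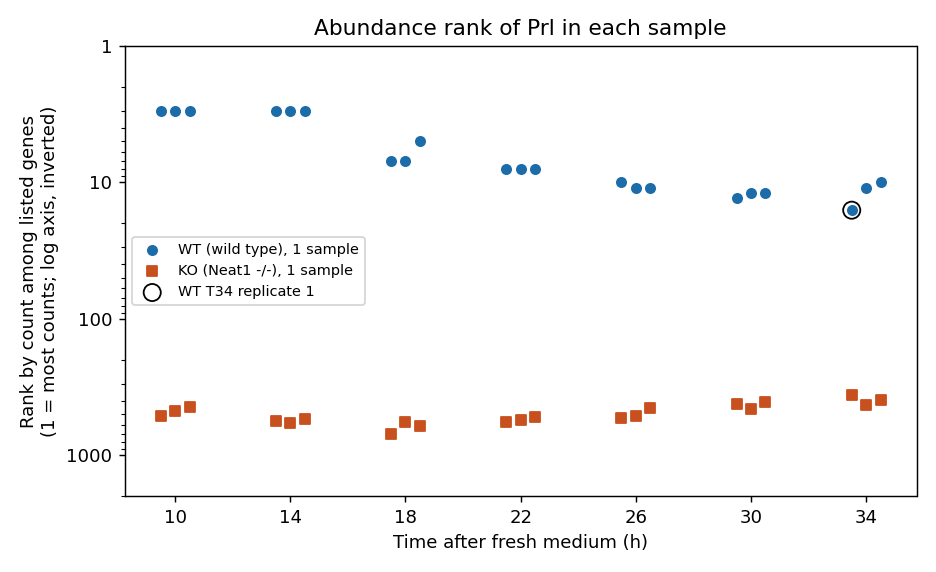
Rank of Prl by count among the 13776 listed genes (y axis, logarithmic and inverted, 1 is the gene with the most counts) against hours after fresh medium (x axis), with 1 point per sample, WT as circles and KO as squares. WT samples lie at ranks 3 to 16 and KO samples at ranks 364 to 701; the ringed point is WT T34 replicate 1.

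In WT cells the Prl level was highest at the first time and fell through most of the series. The level at T10 was 5447, 5363 and 5983 CPM in replicates 1 to 3, with a mean of 5598 ± 336 (SD, n = 3). At T14 it was 5512, 4911 and 5024 CPM, which overlapped T10. At T18 it was 4046, 3915 and 4445 CPM. All 3 samples at T18 lay below the lowest at T14. The level at T22 was 3310, 3267 and 3157 CPM, at T26 2648, 2613 and 2535 CPM, and at T30 2255, 2412 and 2389 CPM. Each of these times lay wholly below the one before it. The fall did not continue at T34, where the level was 1846, 2650 and 2539 CPM. Replicate 1 was the lowest of all 21 WT samples, and replicates 2 and 3 lay within or above the range of T26. The mean at T34 was 2345 ± 436 CPM (SD, n = 3), and 2595 ± 78.3 CPM without replicate 1 (SD, n = 2).

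In KO cells the level was low throughout and varied little. At T10 it was 273, 286 and 302 CPM, at T14 257, 256 and 270 CPM, and at T18 226, 259 and 249 CPM. T18 held the lowest KO sample of the series. At T22 it was 255, 259 and 275 CPM and at T26 275, 276 and 303 CPM. At T30 it was 312, 283 and 313 CPM, and at T34 331, 296 and 319 CPM. T34 held the highest KO sample, and it was still far below the lowest WT sample, WT T34 replicate 1 at 1846 CPM. Between replicates the coefficient of variation was 2.21% to 6.67% in the WT groups other than T34, 18.6% in WT at T34 and 2.97% to 7.02% in the KO groups. Counting error alone gave 0.171% to 0.285% in WT and 0.796% to 0.942% in KO, so depth did not limit these levels.

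**Figure D2:**
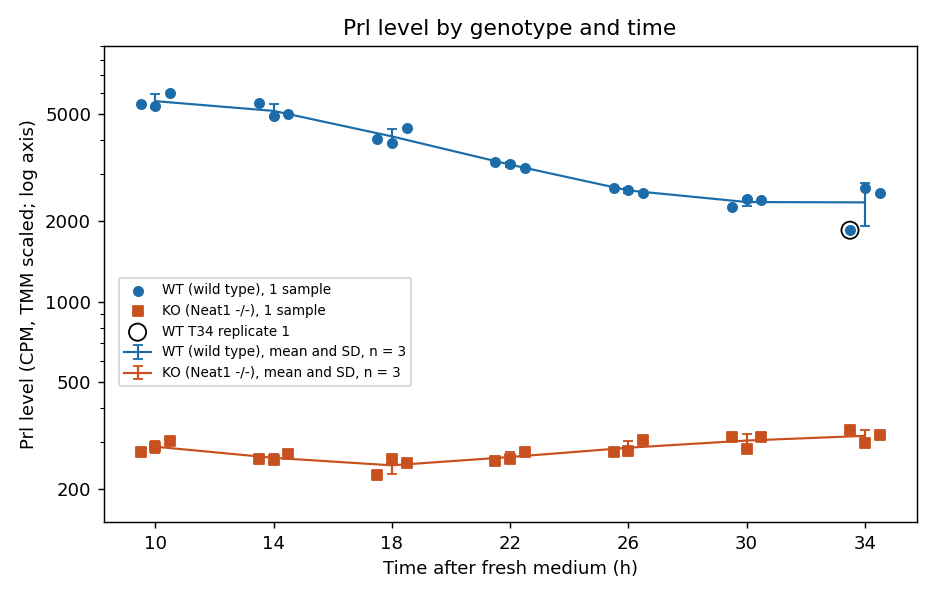
Prl level in TMM-scaled CPM (y axis, logarithmic) against hours after fresh medium (x axis), with 1 point per sample, lines through the group means and bars of 1 SD (n = 3 per group). WT lies between 1846 and 5983 CPM and KO between 226 and 331 CPM, with no overlap at any time.

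The first comparison asked how the deletion line differed from WT in Prl at matched times. Prl was lower in KO at all 7 times, by 19.5-fold at T10, 19.7-fold at T14, 16.9-fold at T18, 12.3-fold at T22, 9.13-fold at T26, 7.77-fold at T30 and 7.44-fold at T34, from the group means. Over all 7 times Prl averaged 3632 ± 1300 CPM in WT and 280 ± 26.7 CPM in KO (SD, n = 21 samples each), where the SD includes the change over time. All KO samples lay below all WT samples, as they did for 8.83% of all genes. Averaged over the 7 times the log2 fold change was -3.62 (SE 0.04), or -3.64 without WT T34 replicate 1, with an adjusted p of 8.50e-38 by edgeR's quasi-likelihood test with Benjamini-Hochberg adjustment over all genes. The call itself says little about Prl, because 44.7% of all genes were called lower in KO in this comparison. Its size was at the edge of the table, with 25 of 13776 genes at a lower log2 fold change, and a median over all genes of -0.01. Among the 67 genes that averaged 1000 CPM or more in WT at T10, Prl had the lowest. That set was picked by the level in WT at T10, where Prl was highest, so this rank is a description only.

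At single times the log2 fold change was -4.29 (SE 0.10) at T10, where 34.5% of genes were called lower, and -4.30 (SE 0.10) at T14, where 34.9% were. It was -4.08 (SE 0.10) at T18 (34.1% of genes called lower) and -3.63 (SE 0.09) at T22 (34.9%). At these 4 times the adjusted p by edgeR was at most 1.43e-24. The difference then narrowed. It was -3.19 (SE 0.09) at T26 (35.0% of genes called lower), -2.96 (SE 0.09) at T30 (36.0%) and -2.90 (SE 0.09) at T34 (33.1%), with adjusted p values by edgeR of at most 3.10e-22. Without WT T34 replicate 1 the T34 value was -3.04. Prl was among the 18.6% of genes called lower at all 7 times. With library totals in place of TMM, the median log2 fold change of all genes moved to -0.31 and that of Prl to -3.92 over all times, so relative to the bulk of genes its difference was almost the same. When the totals were taken without the 2 genes that took the most counts in KO, the value was -3.63.

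**Figure D3:**
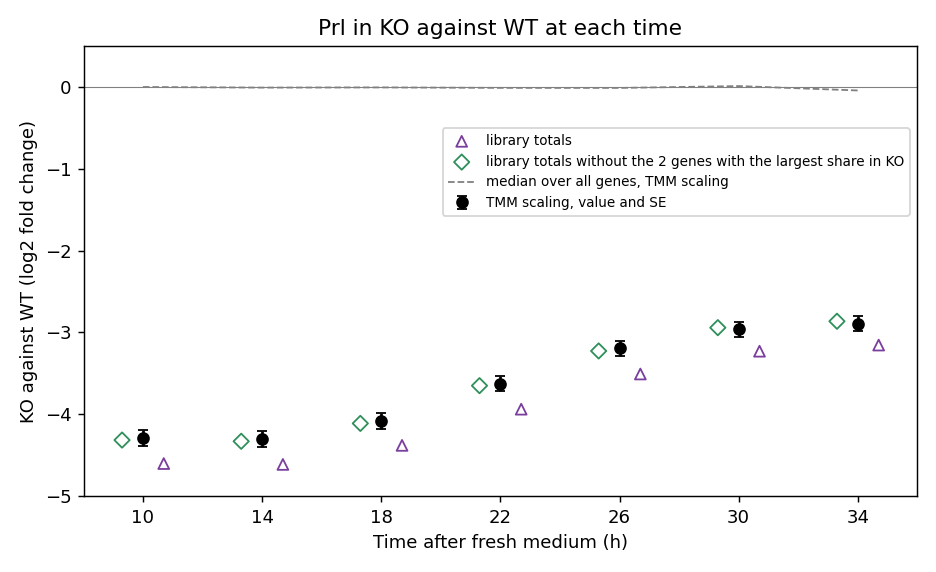
Log2 fold change of Prl in KO against WT (y axis) at each time after fresh medium (x axis), with TMM scaling (filled points, bars of 1 SE), library totals (triangles) and library totals without the 2 genes with the largest share in KO (diamonds); the dashed line is the median over all genes. The filled points run from -4.30 at T14 to -2.90 at T34.

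The change of the Prl difference over time was tested directly. The gap between the genotypes was largest at T10 and T14 and smallest at T34, or at T30 without WT T34 replicate 1, and the WT level moved far more than the KO level. The mean in WT at T34 was 0.419 of that at T10 (0.464 without that replicate), while in KO it was 1.10 times that at T10. The interaction of genotype and time (6 degrees of freedom) had an adjusted p of 7.11e-12 by edgeR, a test that called 39.3% of all genes. Only 10 of 13776 genes had a larger test statistic. Without WT T34 replicate 1 the adjusted p was 1.59e-16.

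Within WT, Prl changed over the 7 times with an adjusted p of 3.23e-14 by edgeR (3.01e-19 without WT T34 replicate 1), in a test that called 37.5% of genes. Against T10 the log2 fold change was -0.12 (SE 0.09) at T14, which did not pass (adjusted p 0.748 by edgeR, and 0.951% of genes called lower). It was -0.44 (SE 0.09) at T18, with an adjusted p of 7.59e-04 by edgeR and 3.63% of genes called lower. At T22 it was -0.79 (SE 0.09), at T26 -1.11 (SE 0.09) and at T30 -1.25 (SE 0.09), with adjusted p values of at most 4.25e-08 by edgeR. Only 6.79%, 6.87% and 9.76% of genes were called lower at these 3 times. So Prl fell by 2.38-fold between T10 and T30, and 78 of 13776 genes had a lower log2 fold change over that span. Of the 67 genes that averaged 1000 CPM or more in WT at T10, Prl fell the most to T30. The T10 level also set which genes entered, so this rank too is a description only. From T10 to T30 the log2 level fell by 0.068 per h (SE 0.0031, least squares over 18 samples), which corresponds to a 2-fold fall every 14.7 h. T34 against T10, which are 24 h apart, gave -1.26 (SE 0.09, adjusted p 1.38e-12 by edgeR, 15.0% of genes called lower), so the level had not returned after 24 h. Without WT T34 replicate 1 the value was -1.11. With only the 6 samples of T10 and T34 in the fit, it was -1.26 but no longer passed (adjusted p 0.0797 by edgeR). That fit called 26 of 13776 genes in either direction, against 5225 in the fit of all samples.

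Within KO, the change over time passed the test at an adjusted p of 0.00733 by edgeR, which called 36.8% of genes, but the change was small. The group means went from 287 ± 14.4 CPM at T10 to a lowest value of 245 ± 17.2 CPM at T18 and then to 315 ± 17.4 CPM at T34 (SD, n = 3). The adjusted p was 1.26e-05 without WT T34 replicate 1. The call was lost without KO replicate 1 (adjusted p 0.331) and without KO replicate 3 (adjusted p 0.151). T18 against T10 was -0.23 (SE 0.09) with an adjusted p of 0.373 by edgeR, where 0.537% of genes were called. Without WT T34 replicate 1, which enters through the shared estimate of spread, it was -0.23 with an adjusted p of 0.0230. T14, T22, T26 and T30 against T10 gave -0.14, -0.13, -0.01 and 0.08 (SE 0.09 each), none of which passed (adjusted p at least 0.621 by edgeR), with 0.0363%, 1.33%, 4.62% and 19.1% of genes called. T34 against T10 was 0.13 (SE 0.09) and did not pass (adjusted p 0.237 by edgeR, while 16.5% of genes were called higher). With library totals it was 0.20 and passed (adjusted p 0.0320), as it did with only the 6 samples compared (0.15, adjusted p 0.0289). The median over all genes moved too, from -0.02 with TMM to 0.05 with library totals, so relative to the bulk of genes Prl differed little. By least squares the log2 level in KO fell by 0.029 per h from T10 to T18 (SE 0.0073, 9 samples) and rose by 0.023 per h from T18 to T34 (SE 0.0034, 15 samples). The fits against T10 at T14 to T30, and the slopes, were chosen after the values were seen.

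**Figure D4:**
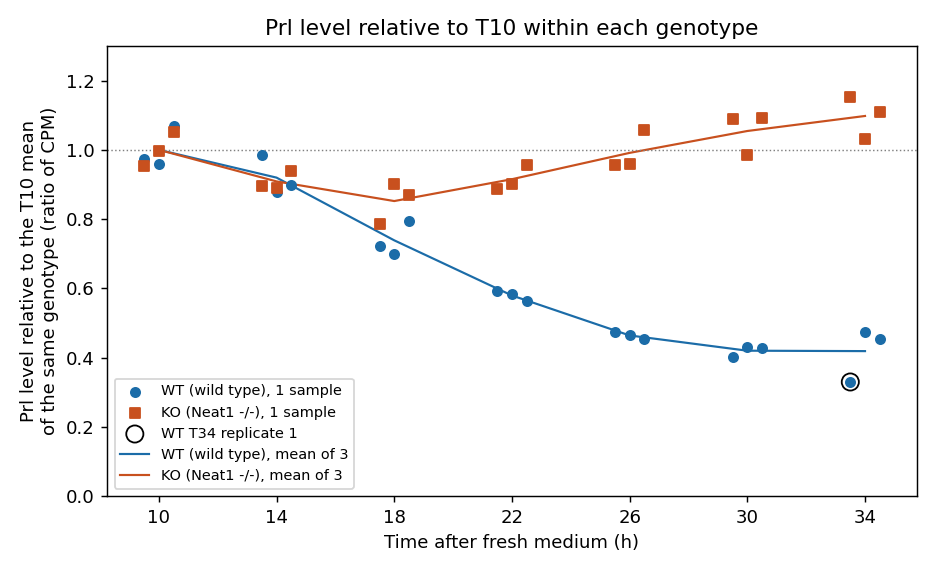
Prl level divided by the T10 mean of the same genotype (y axis, ratio of CPM) against hours after fresh medium (x axis), with 1 point per sample and lines through the means of 3. The WT line falls to 0.420 at T30 and 0.419 at T34, while the KO line dips to 0.852 at T18 and reaches 1.10 at T34.

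Since the study is about rhythms, a 24 h cosine curve was fitted to Prl in each genotype. In WT the fitted amplitude, the log2 distance from mean to peak, was 0.54 with a peak at 15.0 h. It missed the threshold (adjusted p 0.0510 by edgeR, 1.81% of genes called). By the same test the adjusted p was 0.0828 with a replicate block, 0.499 without WT replicate 2 and 0.640 without WT replicate 3. The fit without WT replicate 2 and the fit without WT replicate 3 each called 0 of all genes. Without WT T34 replicate 1 the amplitude was 0.56 and the test passed (adjusted p 0.00213 by edgeR). The number of genes called in WT also rose without that sample, from 250 to 1895. With a linear term in time beside the curve the WT amplitude dropped to 0.18 (adjusted p 0.0666 by edgeR), or 0.22 without that sample (adjusted p 4.74e-05 by edgeR). In KO the amplitude was 0.17 with a fitted peak at 30.8 h (adjusted p 0.00213 by edgeR, 34.6% of genes called). It was 0.14 with a linear term (adjusted p 3.40e-04 by edgeR). The KO call was lost without KO replicate 2 (adjusted p 0.0519) or replicate 3 (adjusted p 0.0893). Those fits gave amplitudes of 0.20 and 0.16 and called 37 and 0 genes, against 4766 with all KO samples. The cosine terms differed between the genotypes with an adjusted p of 0.00349 by edgeR, in a test that called 13.1% of genes, and the difference between the curves had a log2 size of 0.64 (0.65 without WT T34 replicate 1, adjusted p 1.71e-04 by edgeR). With a linear term for each genotype the size of the difference was 0.24 (adjusted p 0.00574 by edgeR). The series spanned 24 h, so no cycle could be seen to repeat.

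Ordered by level, the 14 groups ran from WT T10 down through the WT times in sequence to WT T34, and then from KO T34 through KO T30, T10, T26, T22 and T14 to KO T18. Without WT T34 replicate 1 the mean of WT T34 was 2595 CPM, above WT T30 at 2352 CPM and beside WT T26 at 2599 CPM, so the order at the low end of WT rests on that sample. Sample ranges of neighbours overlapped between WT T10 and T14 and between WT T30 and T34. They did not overlap in the 4 steps from WT T14 to WT T30, nor between WT T34 and KO T34, the step from 2345 to 315 CPM. All 6 neighbouring pairs within KO overlapped, so the order of the KO groups is not resolved step by step.

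Genes with the course most like that of Prl were sought among the 9493 other genes that averaged 10 CPM or more, by Pearson's r of log2 CPM over the 42 samples after each genotype's mean was taken off. These values are descriptions, since all genes share the samples and their scaling. Prl varied more in WT than in KO, so WT weighs more in r, and r is also given within each genotype. The median r was 0.0017, and 2 genes reached an r of at least 0.9, against 5 genes without WT T34 replicate 1. With all samples the nearest was ENSRNOG00000015055, with an r of 0.918. Without that replicate its r was 0.945 and it was at rank 2. Within WT alone its r was 0.936, and within KO alone 0.614. In WT it fell from 738 CPM at T10 to 289 CPM at T30, a fall close to that of Prl, but its genotype difference had the opposite sign. Its mean was 1104 CPM in KO at T10 and 1098 CPM in KO at T34, and its log2 fold change in KO against WT was 1.36. The second was ENSRNOG00000001201, with an r of 0.904, and 0.910 at rank 5 without that sample. Its r was 0.924 within WT and 0.748 within KO. It went from 77.0 to 35.8 CPM between T10 and T30 in WT, and its log2 fold change in KO against WT was -0.89. The most opposite course was that of ENSRNOG00000013593, with an r of -0.922, or -0.917 and still the lowest without that sample. This gene went from 10.1 to 18.9 CPM over the same span in WT. Its r was -0.976 within WT and -0.530 within KO. ENSRNOG00000025198 followed with an r of -0.847, but its r of -0.838 without that sample was no longer next to the lowest. Its r was -0.902 within WT and -0.672 within KO. It had levels in WT of 160 CPM at T10 and 259 CPM at T30. The identifiers are not paired with symbols in the sources used here, so these genes are not named further.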

How the data were processed

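RNA sequencing was analysed in 42 samples of GH4C1 cells. Strand-specific libraries were read as pairs of 150 bp, per the labels' protocols. The authors deposited whole-number counts of reads per gene, 1 table per genotype, made with featureCounts per the submitters' processing notes (version not given in the sources used here, as are the aligner, build, annotation and strand setting). Both tables list the same 13776 genes, all tested; the edgeR filter filterByExpr removed 0.

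Counts were tested in R 4.3.3 with edgeR 4.0.16 (quasi-likelihood F test, TMM scaling, a mean for each of the 14 groups, no block) and adjusted by Benjamini-Hochberg over all genes, with calls at an adjusted p under 0.05. The cosinor used cosine and sine terms of 24 h, with TMM factors taken within the samples fitted. Log2 CPM used a prior count of 1. The tests were checked on simulated data. The chi-square per degree of freedom between replicates was at least 5.48 in all 42 pairs, so no pair differed by counting error alone. This value cannot tell separate cultures from separate preparations of one culture. Each sample was counted once in the tests.

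The alternatives were RLE size factors, library totals with and without the 2 genes of largest share in KO, filterByExpr, DESeq2 1.42.0, a replicate block, samples left out, only the 6 samples compared and, for the cosinor, a linear term, other periods and no T34.

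The member and the lists were chosen with earlier results of these data known. The rule for named genes took Prl, Neat1, members of lists of pituitary hormones and markers, Prl regulators, receptors, second messengers, secretory, prolactin receptor and paraspeckle genes, and the genes most and least like Prl. Of the RefSeq table's 47357 rows 0 carried an Ensembl identifier, so Neat1 and the lists were not analysed here, and only 2 genes on each side of the likeness ranking are printed.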

Additional observations from a re-analysis of the deposited data

Results flagged for a closer look

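The difference in Prl between KO and WT varied over the 7 times by a direct test (interaction adjusted p 7.11e-12 by edgeR). The log2 fold change in KO against WT was -4.29 at T10 and -2.90 at T34. From T10 to T34 Prl changed by -1.26 on the log2 scale in WT and by 0.13 in KO.

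The 24 h cosine terms of Prl differed between KO and WT (adjusted p 0.00349 by edgeR). The amplitude was 0.54 in WT and 0.17 in KO, with fitted peaks at 15.0 and 30.8 h, but the WT curve alone did not pass the test (adjusted p 0.0510 by edgeR), and the measured WT level was highest at T10. With a linear term in time for each genotype the amplitudes were 0.18 and 0.14, and the size of the difference was 0.24 against 0.64 without that term.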

How the results depend on the processing

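Alternatives gave 408 values for 26 results on Prl, and 387 kept the direction and the side of the threshold. All 152 alternative fold changes of KO against WT kept their sign and call, from -3.92 to -3.61 over all times. The setting filterByExpr tests nothing, since it removed 0 genes, yet its values are among the 408 and the 152. Leaving out WT T34 replicate 1 likewise could not move the KO cosinor, and those values are also among the 408. The cause of the changes below was not tested.

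The WT cosinor (0.54) passed with DESeq2 (0.54), library totals (0.55), totals without the 2 genes of largest share in KO (0.54), a 28 h period (0.63), no T34 samples (0.60), and a linear term without WT T34 replicate 1 (0.22, added after seeing the data). With samples left out the WT amplitude ranged from 0.52 to 0.57, and its adjusted p by edgeR from 0.00213 to 0.640. A 20 h period ended the call of the KO cosinor (0.13) and of the difference in cosinor (0.25). With KO replicates left out, the KO cosinor ranged from 0.14 to 0.20, and the adjusted p of change over time in KO, over all left-out samples, from 1.26e-05 to 0.331. T34 against T10 in KO passed with library totals (0.20), totals without those 2 genes (0.20), only the 6 samples compared (0.15), and without WT replicate 1 (0.15; range with samples left out 0.065 to 0.18). With either kind of totals the median of all genes in that KO comparison was 0.05, against -0.02 with TMM. T34 against T10 in WT with only the 6 samples was -1.26 and did not pass, in a fit that called 26 genes. T26 against T10 in KO ranged from -0.023 to 0.0065 with samples left out, and reversed to 0.0065 without KO replicate 2.

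Replicate numbers showed no clear pairing of the samples outside T34. The check cannot exclude a pairing, since the deviations within a group of 3 are not independent of each other. Same-numbered WT and KO samples of one time had correlated deviations over 0.1 in 3 of 21 pairs (median 0.0096), which were the 3 pairs of T34 (0.23, 0.13 and 0.14), and 10 of 21 WT samples correlated best with their own number. Other-numbered pairs of one time were over 0.1 in 1 of 42 (median -0.0016). With the replicate block, KO against WT was -2.89 at T34 and -3.62 over all times, with 12151 genes called against 12131. Ranks per length, ranks without mitochondrial genes and the gene lists were not run.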
